A study of Mus musculus with 18 samples.

Results

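The 8 genes described here were Krt8 and Krt18, the keratins of hepatocytes, and Krt7, Krt19, Krt23, Sox9, Spp1 and Cdh1, most of which are known from the epithelium of bile ducts. They were chosen by name, after Krt8 had been seen to be higher in hypothyroid liver, to see whether keratins of hepatocytes or of bile ducts moved with it. Of 16535 genes that could be named on the arrays, 14628 were tested, and all 8 were among them, with 11 probes. Livers of male C57BL/6 pups were compared on post natal day (PND) 15. In the hypothyroid group the dams, and so the litters, were given 0.05% methimazole (MMI) and 1% perchlorate in sugar water from PND 12, while dams of the control group had sugar water alone. Both agents block the making of thyroid hormone. Per the methods, pups of both groups were injected with PBS before sacrifice, and the pups came from separate litters. Each of 5 control and 5 hypothyroid livers was hybridised against a common mouse reference RNA on a 2-colour array. The level given throughout is the log2 ratio of liver to reference, and a difference is the hypothyroid mean minus the control mean of that ratio.

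Keratins form filaments as pairs of a type II and a type I chain. Krt8 (type II) and Krt18 (type I) are the pair that every hepatocyte holds, and the lack of either one leaves hepatocytes fragile. Cholangiocytes, the cells that line bile ducts, hold the same pair and add Krt7 and Krt19. Krt23 is a type I keratin. Sox9 is a transcription factor of ductal cells, Spp1 encodes the secreted protein osteopontin, and Cdh1 encodes E-cadherin, the adhesion protein of epithelial junctions. In whole liver RNA, fewer cells of a type and less RNA per cell cannot be told apart.

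The genes of Krt8 and Krt18 are neighbours on chromosome 15 and are read in opposite directions. Their promoter windows, from 250 bases before the start to 50 bases after it, are shown because these are the members whose levels did not overlap between the groups. The sequences are from RefSeq (GRCm38.p6), and the set of windows used here held 5 of the 8 members. The Krt8 window is chr15:102004293-102004592 on the minus strand and the Krt18 window is chr15:102027966-102028265 on the plus strand. Capitals mark matches on either strand to AGGTCA, the single hexamer that response elements of nuclear receptors hold as a repeat. They also mark matches to TATAAA, the core of the element found near many transcription starts.
Krt8: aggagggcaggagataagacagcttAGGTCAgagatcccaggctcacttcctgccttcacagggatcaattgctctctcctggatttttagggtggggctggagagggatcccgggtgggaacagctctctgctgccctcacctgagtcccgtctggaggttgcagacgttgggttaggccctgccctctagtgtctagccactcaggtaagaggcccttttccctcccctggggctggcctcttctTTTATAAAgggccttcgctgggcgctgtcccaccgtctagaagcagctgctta
Krt18: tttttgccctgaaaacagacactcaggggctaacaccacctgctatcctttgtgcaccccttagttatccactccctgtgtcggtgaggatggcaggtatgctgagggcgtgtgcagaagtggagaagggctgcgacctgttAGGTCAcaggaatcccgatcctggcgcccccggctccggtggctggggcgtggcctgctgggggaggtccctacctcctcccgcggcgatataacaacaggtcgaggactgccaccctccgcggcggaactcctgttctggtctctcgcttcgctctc
The single hexamer was found once in each window, from base 26 in that of Krt8 and from base 143 in that of Krt18. Of the other members with a window, Krt7 held the hexamer too, from base 266, while Krt23 and Spp1 did not hold it. It was also in 16.3% of all 32851 promoter windows. The other motif was found in the Krt8 window on both strands, in matches that overlap, from base 248 and base 250. It was in 13.6% of all windows. The GC box (GGGCGG) was found in neither window, and in 35.7% of all windows. The AP-1 site (TGACTCA) was found in neither, and in 5.2% of all windows. Such matches describe letters and not binding.

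Signal passed the background limit for between 75.9% and 85.4% of probes on each array. On slide 141 (control 832 and hypothyroid 576) the ratios taken with the dyes as labelled correlated across probes at -0.97 and -0.98 with the mean of the remaining slides, and its channels were exchanged. Control 616 had compressed ratios. The SD of its log2 ratios was 0.733, beside 1.01 to 1.099 on the other arrays, and it correlated at 0.88 with the other slides, where the other arrays reached 0.97 or more. Values without it are given for many, but not all, results that moved by over 1.5 times, gained a call or lost one. Controls 832, 522 and 616 had signal of pancreatic acinar genes, with a mean level over 16 markers of 3.73, 3.74 and 2.25, where the other 7 arrays had 0.24 to 0.35. Values without those 3 controls, which leave 2 controls, are given for each member.

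Krt8 was higher in every hypothyroid liver than in any control liver. The level of its brighter probe was -0.35, -0.38, -0.62, -0.53 and -0.56 in control livers 881, 832, 522, 616 and 391. In hypothyroid livers 891, 576, 311, 723 and 626 it was 0.11, 0.04, 0.25, 0.00 and -0.04. The control mean was -0.49 ± 0.12 (SD, n = 5) and the hypothyroid mean was 0.07 ± 0.11 (SD, n = 5). The difference of 0.56, or 1.47-fold, is what the genes were chosen by, so it is a description and carries no test. Control 616 stood in the middle of the control values for this probe. The second Krt8 probe was also higher in 5 of 5 hypothyroid livers, at 0.17 to 0.30 beside -0.40 to -0.07 in control livers, a difference of 0.45. Both probes of Krt8 were well above background on all arrays. Of all genes tested, 172 (1.18%) had a larger positive difference than Krt8, and the median difference of all genes was -0.02. As Krt8 was chosen by its difference, that share is a description too.

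Krt18 followed the same pattern. Its level was -0.59, -0.78, -1.05, -0.56 and -0.77 in the control livers and -0.13, -0.44, 0.08, -0.03 and -0.21 in the hypothyroid livers, in the order used for Krt8. The lowest hypothyroid liver, 576, was above the highest control liver, 616. The difference was 0.60 (1.52-fold, 95% interval 1.27 to 1.81, standard error 0.12). Its unadjusted p was 0.000292 and its p adjusted over all probes was 0.166 by limma, so it did not pass the adjusted threshold of 0.05. Without control 616 the difference was 0.65 with a limma adjusted p of 0.0764. Without the 3 controls with acinar signal it was 0.53, with an unadjusted limma p of 0.00237. Without slide 141 the differences of Krt8 and Krt18 were 0.60 and 0.67, and with its dyes as labelled they were 0.39 and 0.47. Krt8 and Krt18 were the 2 members without overlap between the groups, both higher in hypothyroid liver. As Krt8 was chosen for its rise, only Krt18, of the 7 other members, is set beside the share of all genes. Krt18 pairs with Krt8 and was listed with it, with earlier results of these data known, so the comparison is a description. Over all genes tested, 1.2% were higher without overlap and 1.22% were lower without overlap.

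The number of transcripts that passed the threshold was small in the main fit. By limma 2 of 32056 probes (0.00624%) had an adjusted p below 0.05, and 2378 had an unadjusted p below 0.05. Of the 7 genes other than Krt8, 2 had an unadjusted limma p below 0.05 with a higher hypothyroid mean (Krt18 and Krt23), where 3.75% of all genes did so. With a lower hypothyroid mean 0 of the 7 did, where 5.01% of all genes did. None of the 7 had an adjusted p below 0.05. The 7 were listed around Krt8 with earlier results of these data known, so they are not an independent draw from all genes.

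**Figure D1:**
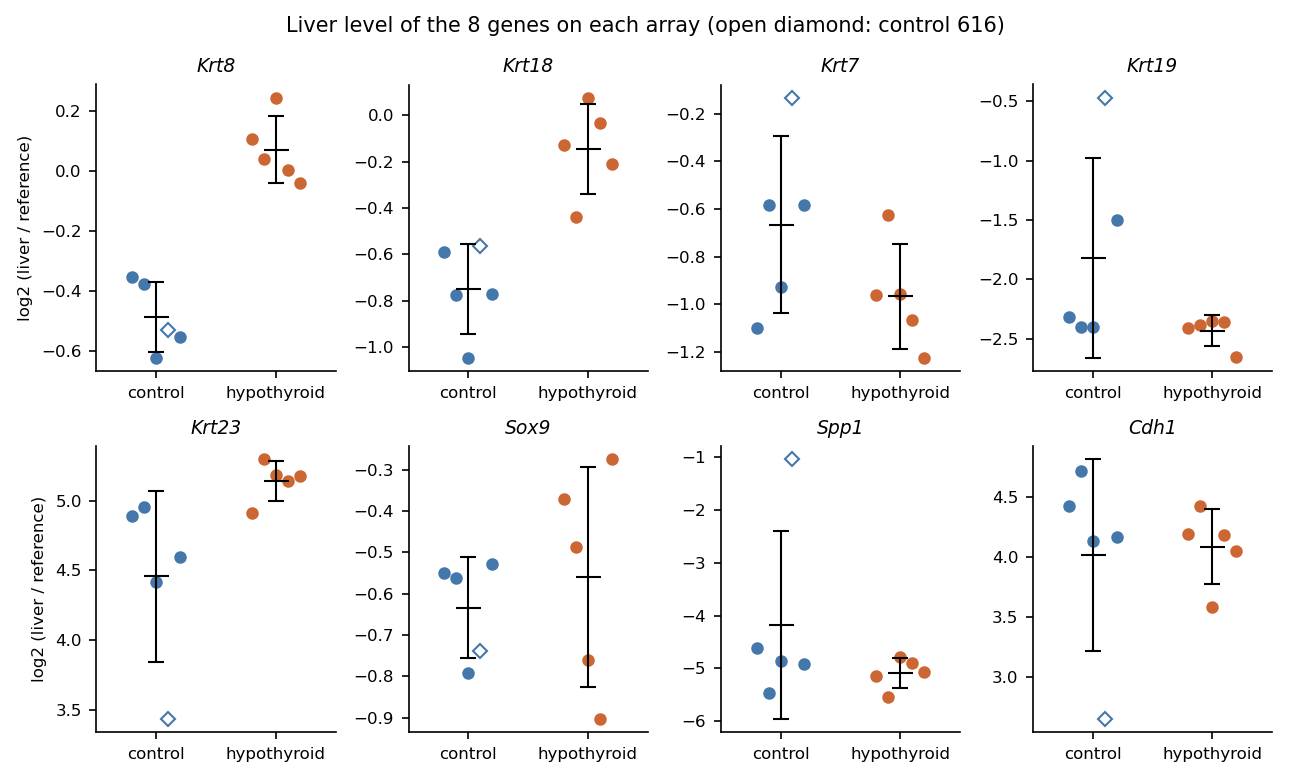
Level of the 8 genes on each array, as the log2 ratio of liver to reference for the brightest probe of each gene; points are the 5 control and 5 hypothyroid livers, bars are the mean and SD, and the y axis differs between panels. The groups do not overlap for Krt8 and Krt18. Control 616 (open diamond) is the highest control for Krt18, Krt7, Krt19 and Spp1 and the lowest for Krt23 and Cdh1.

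Krt23, the other keratin with a higher mean, was strongly enriched in liver over the reference on every array. Its level was 4.89, 4.95, 4.41, 3.43 and 4.60 in the control livers and 4.91, 5.30, 5.18, 5.14 and 5.17 in the hypothyroid livers. In 4 of 5 hypothyroid livers it was above every control liver, and hypothyroid 891 lay within the control range. The difference was 0.68 (1.61-fold, 95% interval 1.103 to 2.34), with an unadjusted limma p of 0.0181 and an adjusted p of 0.598. Control 616 was the lowest control, and without it the difference was 0.43, with an adjusted limma p of 0.298. Without the 3 controls with acinar signal it was 0.40, with an unadjusted limma p of 0.00843, and all 5 hypothyroid livers were above the 2 controls left.

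Krt7 and Krt19, the keratins that cholangiocytes add to the pair, had lower hypothyroid means, with groups that overlapped and intervals that include no change. Krt7 had levels of -1.10, -0.58, -0.93, -0.13 and -0.58 in the control livers and -0.96, -0.63, -0.96, -1.07 and -1.23 in the hypothyroid livers. The groups overlapped, and control 616 was the highest of all 10 arrays. The difference was -0.30 (0.811-fold, 95% interval 0.623 to 1.06, limma adjusted p = 0.728), and -0.17 without control 616. It was -0.12 without the 3 controls with acinar signal.

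Krt19 was below the reference on every array. Its level was -2.31, -2.41, -2.40, -0.47 and -1.50 in the control livers and -2.41, -2.39, -2.35, -2.36 and -2.66 in the hypothyroid livers. Controls 616 and 391 stood above the other 8 livers, which lay between -2.66 and -2.31. The difference was -0.61 (0.653-fold, 95% interval 0.395 to 1.08, limma adjusted p = 0.712), which moved to -0.28 without control 616. Without the 3 controls with acinar signal, 2 controls remained, of which 391 was high, and the difference was -0.52 with an unadjusted limma p of 0.0166.

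Sox9 was read by 3 probes that did not share a direction. The brightest probe had levels of -0.55, -0.56, -0.79, -0.74 and -0.53 in the control livers and -0.37, -0.49, -0.76, -0.90 and -0.27 in the hypothyroid livers. The values of 3 hypothyroid livers were above every control and hypothyroid 723 was below every control. The difference was 0.07 (95% interval -0.19 to 0.34, limma adjusted p = 0.889). It was 0.05 without control 616. It was -0.02 without the 3 controls with acinar signal. The second probe, printed in 10 spots per array, differed by -0.28 (95% interval -0.62 to 0.07, limma adjusted p = 0.727). Without control 616 that probe differed by -0.15. The third differed by 0.08, but was well above background on only 2 control and 3 hypothyroid arrays.

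Spp1 was far below the reference RNA, at -4.61, -5.47, -4.86, -1.05 and -4.92 in the control livers and -5.13, -5.54, -4.79, -4.90 and -5.06 in the hypothyroid livers. Apart from control 616 the groups covered the same range. The difference of -0.90 (0.535-fold, 95% interval 0.186 to 1.54, limma adjusted p = 0.766) was -0.12 without control 616. It was -0.32 without the 3 controls with acinar signal. The 10 spots of this probe spread within an array by an SD of 0.0162 to 0.122.

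Cdh1 was enriched in liver, at 4.42, 4.71, 4.13, 2.65 and 4.16 in the control livers and 4.19, 4.42, 3.59, 4.18 and 4.05 in the hypothyroid livers. The difference was 0.07 (95% interval -0.66 to 0.80, limma adjusted p = 0.969). It turned to -0.27 without control 616, the lowest array, with a limma adjusted p of 0.798. It was -0.21 without the 3 controls with acinar signal. The intervals of Krt7, Krt19, Sox9, Spp1 and Cdh1 include no change, and those of Spp1 and Cdh1 are wide enough to hold a change of the size seen for Krt8 in either direction.

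**Figure D2:**
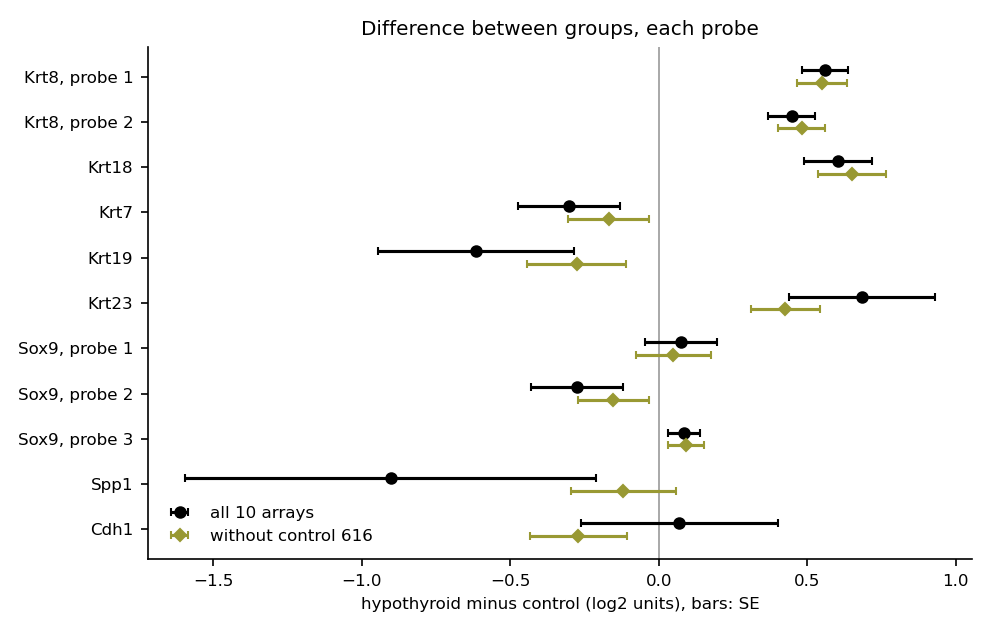
Hypothyroid minus control difference in log2 units for each of the 11 probes, with the limma standard error, over all 10 arrays (circles) and without control 616 (diamonds). Krt8 and Krt18 keep their difference without that array, while Spp1 goes from -0.90 to -0.12 and Cdh1 from 0.07 to -0.27.

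Of the 6 slides, 4 held both a control and a hypothyroid liver, and the difference was also taken within each of these. Krt8 was higher in the hypothyroid liver on 4 of 4 slides, by 0.42 to 0.87. Krt18 was higher on 4 of 4, by 0.34 to 1.12. Krt23 was higher on 4 of 4 as well, but by as little as 0.02 on slide 139 and by 1.74 on slide 100, which holds control 616. The brightest Sox9 probe was higher on 4 of 4 slides, by 0.03 to 0.46, and the 10-spot probe was lower on all 4. The difference of 0.46 was on slide 100. Krt7 was higher on 1 of 4 slides, Krt19 on 2, Spp1 on 1 and Cdh1 on 1. On slides 139, 141 and 136 Krt19 differed by -0.09 to 0.05.

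**Figure D3:**
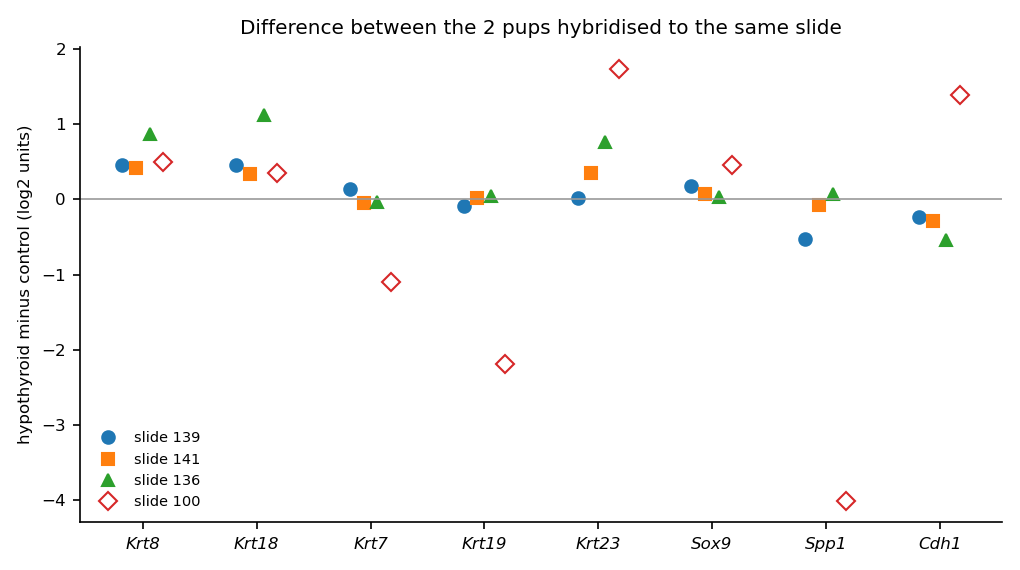
Hypothyroid minus control difference in log2 units between the 2 livers that share a slide, for the brightest probe of each gene and the 4 slides that hold both groups. All 4 slides lie above 0 for Krt8, Krt18, Krt23 and Sox9. Slide 100 with control 616 (open diamonds) lies farthest from 0 for Krt7, Krt19, Krt23, Sox9, Spp1 and Cdh1.

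The ratio could differ through either channel, so the liver channel was read alone. There the hypothyroid mean was higher by 0.59 for Krt8, 0.73 for Krt18 and 0.80 for Krt23. For each of them the groups did not overlap in this channel, while in the ratio Krt23 overlapped. The share of all genes without overlap in this channel was not computed, and Krt8 was chosen by its difference. The reference channel differed between the groups by 0.03, 0.13 and 0.12 for the same genes. In control 616 the reference channel was 8.16 for Krt23, beside 6.70 to 7.70 on the other arrays. For Krt18 it was 14.29 there, beside 14.92 to 15.27. The liver channel of control 616 was 11.59 for Krt23, where the lowest array had 11.40.

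Within the groups, Krt8 and Krt18 were less alike than between them. Over the 10 arrays the level of Krt18 correlated with that of Krt8 at r = 0.91, rank 11 of 14429 genes, a value that includes the difference between the groups. With the group means removed r was 0.56 and the rank was 645. The genes most like Krt8 by that measure were B3gat1 (r = 0.92), Trem3 (0.92), Camp (0.92), Cstdc6 (0.91) and Wdr63 (0.90). These are the highest of 14429 values, and whether so many genes would give such r by chance was not tested. Camp encodes the neutrophil granule peptide cathelicidin. Among the other members r was 0.35 for Krt23, 0.12 for Cdh1, -0.00 for Sox9, -0.05 for Krt7, -0.12 for Spp1 and -0.18 for Krt19. The points share their arrays and the reference, 10 arrays are few, and the 2 Krt8 probes themselves correlated at only 0.72 by this measure.

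The genes next to the pair did not have differences of its size. Between Krt8 and Krt18 the annotation holds 2 genes, both noncoding (Gm36026 and Gm41404), which were not among the genes tested. On the Krt8 side the nearest tested genes were the keratins Krt79 (0.14), Krt4 (0.04) and Krt76 (-0.01). On the Krt18 side they were Eif4b (0.07), Tns2 (-0.09) and Spryd3 (-0.16). The smallest of the 6 unadjusted limma p was 0.0691.

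Other genes of the bile duct were read from lists, and their counts stand beside the 3.75% of all genes that were higher and the 5.01% that were lower at the same threshold. Of 15 tested genes of biliary epithelium, 1 had an unadjusted limma p below 0.05, lower in hypothyroid liver, and the median difference was -0.18, or -0.07 without control 616. It was Aqp1, the water channel, at -0.28 with an unadjusted limma p of 0.0087 and an adjusted p of 0.510. Tspan8 differed by -0.33 and Cldn7, a claudin, by -0.19.

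Among 16 genes of bile duct development, 2 were higher and 2 lower at an unadjusted limma p below 0.05, with a median of -0.13, or -0.01 without control 616. Notch1, a receptor of the pathway that directs cells to the biliary fate, differed by -0.45 with an unadjusted limma p of 0.000212 and an adjusted p of 0.148. Every hypothyroid liver was below every control liver for Notch1. Ccn2, a target of Yap1, differed by -0.79, or by -0.53 without control 616. Onecut1 and Onecut2, transcription factors of the liver, differed by 0.47 and 0.48, and Onecut2 did not overlap between the groups. Without control 616 Onecut1 differed by 0.34, with an unadjusted limma p of 0.0548, and Onecut2 by 0.26. In this list 1 gene was higher and 3 were lower at an unadjusted limma p below 0.05 without that array.

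Of 15 other keratins tested, 0 had an unadjusted limma p below 0.05, and their differences ran from -0.12 to 0.23 with a median of 0.02. The 3 with the smallest p were Krt79 (0.14), Krt13 (0.09) and Krt6b (0.07). Without control 616 Krt13 differed by 0.15, Krt6b by 0.04, and the median of the list was 0.04. Of 20 genes for filament partners and other intermediate filaments, 1 was higher at an unadjusted p below 0.05, and the median was 0.00. It was Eppk1, or epiplakin, a protein that binds keratin filaments, at 0.34 with an unadjusted limma p of 0.00214 and an adjusted p of 0.321, again without overlap between the groups. Without control 616, 2 genes were higher, and without the 3 controls with acinar signal 3 genes had an unadjusted limma p below 0.05. Lmnb2, a nuclear lamin, differed by -0.28, or by -0.14 without control 616, and Des, the filament of stellate and muscle cells, by -0.19.

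Of 20 genes of epithelial junctions, 4 were higher and 0 lower at an unadjusted limma p below 0.05, with a median of 0.26, where 3.75% of all genes were higher and 5.01% lower. Cldn2 differed by 1.02, Cldn1 by 0.60 and F11r by 0.26, and each encodes a protein of tight junctions. Without control 616 they differed by 0.72, 0.36 and 0.19, and F11r had an unadjusted limma p of 0.0943. Without the 3 controls with acinar signal 1 gene of the list had an unadjusted limma p below 0.05. The hypothyroid mean was higher for 17 of the 20, and for 14 without control 616, where the median was 0.11 and 3 genes had an unadjusted limma p below 0.05. Control 616 had the lowest mean level over this list, at 1.24, beside 1.80 to 2.08 on the other arrays.

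For Cdh1 itself, 5 genes of its repressors gave 0 with an unadjusted limma p below 0.05 and a median of -0.19, or -0.10 without control 616. Twist1 differed by -0.47, Snai1 by -0.19 and Zeb2 by -0.34, and without control 616 by -0.22, -0.10 and -0.15. For Spp1, 6 genes for receptors gave 0 as well, with a median of 0.07, or 0.04 without control 616. Among them Itgb5, Itga9 and Itga4 differed by 0.11, 0.11 and -0.10, and by 0.15, 0.01 and 0.04 without that array. Without the 3 controls with acinar signal 1 receptor gene had an unadjusted limma p below 0.05.

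Krt8 and Krt18 are known to be raised in stressed liver, so genes of liver stress were read too. Of 16 tested, 0 were higher and 4 were lower at an unadjusted limma p below 0.05, where 3.75% of all genes were higher and 5.01% lower. All 16 had a lower hypothyroid mean, with a median of -0.33. Without control 616 the median was -0.26, with 15 lower means and 3 genes at an unadjusted p below 0.05. Cdkn1a, an inhibitor of the cell cycle, differed by -0.82, Gadd45a, a gene of the DNA damage response, by -0.65, and the heat shock genes Hspa1a and Hspa1b by -0.36 and -0.25. Without control 616 Cdkn1a differed by -0.69, with an unadjusted limma p of 0.0594, and Gadd45a by -0.39. Hspa1a and Hspa1b are near-identical copies, so their probes may read both. Control livers 522 and 616 had the highest mean level over this list, at 0.08 and 0.09, and all other livers were between -0.85 and -0.39. The part of liver stress in the differences of Krt8 and Krt18 was not tested. In none of the 8 gene lists did a gene have an adjusted limma p below 0.05.

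**Figure D4:**
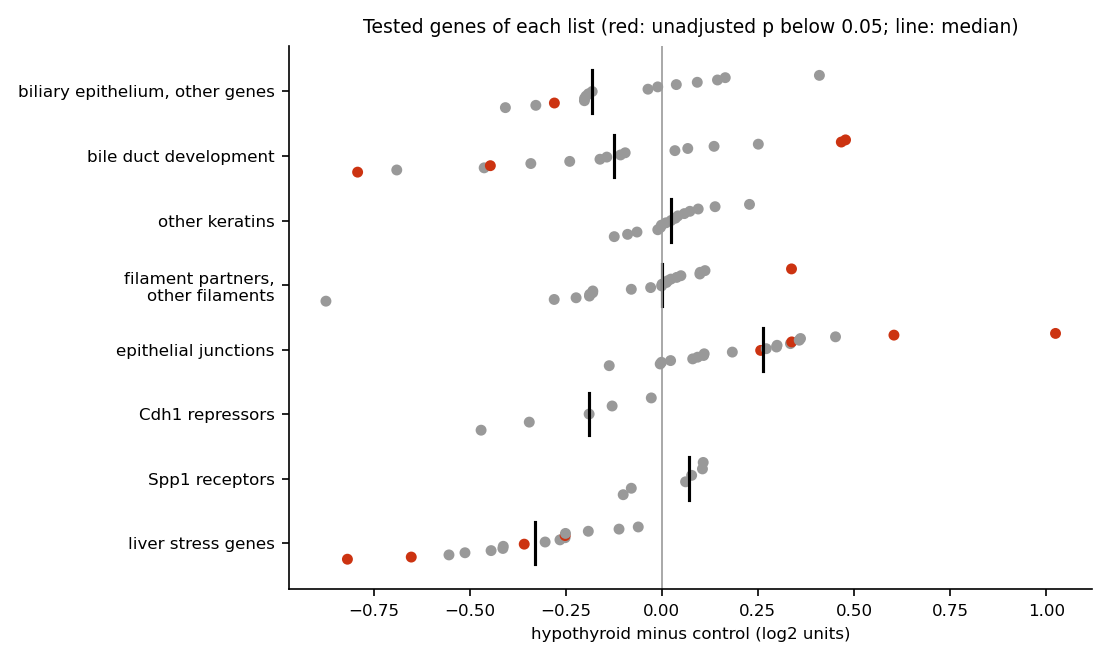
Hypothyroid minus control difference in log2 units for each tested gene of the 8 lists, over all 10 arrays; red points had an unadjusted limma p below 0.05 and black lines are the medians. The other keratins lie near 0, the junction genes mostly above it and all 16 stress genes below it.

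Markers of other cells were read beside these results. Of 16 hepatocyte markers, 2 were higher at an unadjusted limma p below 0.05, and all 16 had a higher hypothyroid mean, with a median of 0.65, or 0.29 with 14 higher means without control 616. The mean level over hepatocyte markers was 2.53 in control 616, 4.21 to 4.81 in the other controls and 4.39 to 4.85 in hypothyroid livers. Their part in the differences of Krt8 and Krt18 was not tested. The 2 were Tat, a tyrosine-degrading enzyme (0.61), and Alb, or albumin (0.66). Without control 616 Tat differed by 0.34 and Alb by 0.48, with an unadjusted limma p of 0.087 for Alb, and 3 markers of this list were called. Of 16 acinar markers 14 were lower at an unadjusted limma p below 0.05, with a median of -1.92. Among these, the elastase Cela1 differed by -2.48 and Bhlha15, a transcription factor of acinar cells, by -0.50. Their levels were high in the 3 controls named above, and Krt8 was 0.53 higher in hypothyroid livers without those controls. The part of the acinar signal in the difference of Krt8, the gene the set was chosen by, was not tested. At an unadjusted limma p below 0.05, 3 of 10 skeletal muscle markers were lower (Mylpf, Myl1 and Acta1), 1 of 5 erythroid markers was higher (Klf1) and 1 of 10 stellate and fibroblast markers was higher (Reln). Mesothelial, macrophage, endothelial and gut epithelium markers had 0 of 6, 0 of 6, 0 of 6 and 0 of 3. Without control 616 the call of Reln was lost (difference 0.20, unadjusted limma p of 0.0594), Acta1 differed by -0.41 in place of -0.63, and 1 gut epithelium marker, Fabp2, was higher by 0.20. The mean level over mesothelial markers, cells that also hold Krt8, Krt18 and Krt19, ranged from -1.15 to -0.18 in control and from -1.23 to -0.85 in hypothyroid livers.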

How the data were processed

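Total RNA from 10 livers (5 control, 5 hypothyroid) was measured against a reference RNA on 2-colour arrays. For every spot the authors deposited a median intensity per channel and an intensity processed by the scanner software, neither normalised between arrays. Here the median intensities were corrected by normexp (offset 50) and loess (span 0.2). Control spots and outlier spots were left out, and spots of a probe were averaged. A probe was kept if its liver signal passed a limit in at least 4 of 5 arrays of a group, which left 32056 of 41174 probes. The limit was set on the (-)3xSLv1 control spots, as their mean plus 3 SDs after trimming by 5%. limma 3.58.1 in R 4.3.3 (with statmod 1.5.0) compared the groups, with p-values adjusted over all probes by the Benjamini-Hochberg method at 0.05. A 2-sided test was used throughout, and 5 arrays per group limit the precision. The channels of slide 141 were exchanged.

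Names were taken by accession from the RefSeq table of GRCm38.p6, which named 23374 probes. The brightest probe stands for a gene. Members and gene lists were chosen with earlier results of these data known. In each list the 3 genes with the smallest unadjusted p were to be named, or 4 where at least 4 were below 0.05. The 5 genes most like Krt8 and the 3 nearest tested genes on each side of the pair were named too. Of the marker lists, only genes with an unadjusted p below 0.05 were named, with counts and levels. The values of 1 junction gene are not reported here. Alternatives were the background correction, normalization, filter, slide as a block, dyes as labelled, the liver channel, the mean over probes and each array left out. The program was tested on simulated data. The miRNA assays of the series were not used.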

Additional observations from a re-analysis of the deposited data

Results flagged for a closer look

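In 8 of 34 groups of 5 arrays (23.5%) 1 array lay far from the other 4, where chance gives about 1 in 20. Each share given is the distance from that array to the next, divided by the distance from the lowest to the highest array of the group. Of the 8, 4 were control 616, which was highest for Spp1 (share 0.805, at -1.05 beside -4.61 for the next control), lowest for Cdh1 (0.719, at 2.65 beside 4.13), lowest for the mean of the hepatocyte markers (0.734, at 2.53 beside 4.21) and highest for the mean of the mesothelial markers (0.758, at -0.18 beside -0.92). Hypothyroid 626 was lowest for Krt19 (0.821, at -2.66 beside -2.41). Hypothyroid 576, on the slide with exchanged channels, was lowest for the means of the hepatocyte markers (0.771) and the macrophage markers (0.737). Hypothyroid 891 was highest for the mean of the gut epithelium markers (0.718).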

How the results depend on the processing

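Over 24 alternatives the difference of Krt8 stayed positive, from 0.39 with the dyes as labelled to 0.76 with median centring, and that of Krt18 ran from 0.47 to 0.80 under the same settings. With median centring the standard errors were 0.41 for Krt8 and 0.46 for Krt18, beside 0.08 and 0.12 in the main fit. The unadjusted limma p of Krt18 was 0.108 with median centring and 0.174 with the dyes as labelled. Krt18 had an adjusted limma p between 0.0317 and 1.00, below 0.05 under 1 setting, without control 616 and with slide as a random block (difference 0.65), which was added after seeing the data. The number of probes past the adjusted threshold, 2, was 1 with the processed signals, with median centring and with the liver channel alone, 0 with slide as a fixed block (2235 at an unadjusted p below 0.05), with the dyes as labelled (110) and with slide 141 left out (2387). It was 14 with slide as a random block, 144 without control 616 with that block, and 1 when the 3 controls with acinar signal were left out, also added later. It ranged from 1 to 30 when single arrays were left out, and 30 was without control 616. Of the 7 genes other than Krt8, 2 had an unadjusted limma p below 0.05, but 1 with the processed signals and 0 with median centring or with the dyes as labelled. The number was 3 without the 3 controls with acinar signal, 3 without control 616 with slide as a random block, and 2 to 3 when single arrays were left out (3 without control 881, 832 or 522). The third gene was Krt19 without control 832 or 522 and without the 3 controls, Krt7 without control 881, and Cdh1, lower, without control 616 with slide as a random block. Sox9 turned to -0.039 with the mean over its probes and to -0.0208 without the 3 controls with acinar signal. Cdh1 turned to -0.11 with the liver channel alone, to -0.29 without control 616 with slide as a random block, and to -0.21 without the 3 controls, and ranged from -0.27 to 0.24 when single arrays were left out (-0.01 without hypothyroid 576). The cause was not tested. Median centring moved the median of all probes from -0.01 to 0.09. By replicate number, no paired analysis was possible because the numbers of the arrays are accession order. Livers were instead paired by slide, within 4 slides and with slide as a block over all arrays.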
